A study of Mus musculus with 9 samples.

Results

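The 45 genes described here encode the enzymes that break glucose down to pyruvate and lactate, those that bring pyruvate into mitochondrial metabolism, and those of the tricarboxylic acid (TCA) cycle with complex II. They were chosen by function from a list of symbols and found by gene identifier among the 47729 identifiers of each count table. By role they are 15 genes of glycolysis and lactate formation, 9 of pyruvate entry, 15 of the TCA cycle, 4 of complex II and 2 malic enzymes. All 45 passed the filter on low counts that left 17671 genes for testing, and the lowest count of any member in any library was 137.

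The libraries were made from dissected midbrain of mice at postnatal day 180, 3 libraries from each of 3 genotypes, with the tissue of 3 mice combined for a library. All animals carried Pitx3-Cre on one allele and the Rosa-lox-stop-lox-YFP reporter, on a C57/Bl6 background, and differed in Dot1l, the methyltransferase of histone H3 lysine 79. Dot1l(+/+) animals had no floxed allele, Dot1l(fl/+) animals had 1 and Dot1l(fl/fl) animals had 2. The question was how losing 1 or both copies of Dot1l in Pitx3-expressing cells, the midbrain dopamine neurons, changes transcript levels. The series design text speaks of sorted embryonic cells, whereas every library is labelled as dissected adult tissue, which holds all cell types of the midbrain while Pitx3-Cre acts in few of them. The mouse pool is therefore the replicate, and p-values measure the spread between pools.

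Glycolysis runs in the cytosol and turns glucose into pyruvate, with phosphofructokinase as its main point of control. Lactate dehydrogenase interconverts pyruvate and lactate, and the pyruvate dehydrogenase complex, held in check by its kinases, feeds the carbon into mitochondria as acetyl-CoA. The TCA cycle oxidises acetyl-CoA to carbon dioxide, and succinate dehydrogenase is at once an enzyme of the cycle and complex II of the respiratory chain. Neurons depend strongly on mitochondrial oxidation, while glia are known for higher glycolytic rates.

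Total counts ran from 16422135 to 28403218 per library, and no 2 replicates of a genotype agreed within sampling noise. Across the whole gene, which includes exons outside any floxed one, Dot1l read 85.2, 80.2 and 85.1 CPM (counts scaled to a common library size) in Dot1l(+/+), 84.2, 60.6 and 75.6 CPM in Dot1l(fl/+), and 82.1, 73.9 and 82.9 CPM in Dot1l(fl/fl), so these values check nothing about the deletion. The 8 dopamine neuron markers summed to 616 to 679 CPM in Dot1l(+/+), 478 to 624 CPM in Dot1l(fl/+) and 464 to 495 CPM in Dot1l(fl/fl), and 7 of 8 were lower in Dot1l(fl/fl) at an unadjusted p under 0.05. Among them was Th, tyrosine hydroxylase, at 75.2 ± 10.3, 64.5 ± 11.2 and 46.1 ± 2.26 CPM (SD, n = 3 per genotype). In bulk tissue, fewer cells of a type and less RNA per cell cannot be told apart. In Dot1l(fl/+), markers of tissue next to the midbrain were uneven between libraries: the 4 choroid plexus markers summed to 104 to 569 CPM against 57.2 to 143 CPM in the controls, with the highest value in replicate 3. The 6 hypothalamic markers, of which 3 passed the filter, summed to 2.86 to 125 CPM in Dot1l(fl/+) against 1.67 to 9.51 CPM in the controls. Of these, Hcrt was at 0 in 1 control library and Oxt at 0 in 2 Dot1l(fl/fl) libraries.

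In the control midbrain the members differed widely in level. Per kilobase of principal transcript, aldolase Aldoa stood highest at 709.9 ± 23.0 CPM (SD, n = 3), followed by pyruvate kinase Pkm at 392 ± 23.4, cytosolic malate dehydrogenase Mdh1 at 357 ± 24.2 and the neuronal enolase Eno2 at 299 ± 4.13. The libraries of Pkm and Mdh1, neighbours in this order, overlapped on this scale. The lowest was Suclg2, the subunit of the GTP-forming succinyl-CoA ligase, at 3.89 ± 0.158 CPM per kilobase. Its ATP-forming counterpart Sucla2 stood at 23.95 ± 1.43 times that level per kilobase in the controls, 26.6 ± 1.103 times in Dot1l(fl/+) and 24.8 ± 1.71 times in Dot1l(fl/fl). The controls ran from 22.3 to 25.1 and Dot1l(fl/+) from 25.4 to 27.6, so these groups did not overlap, although 3 against 3 libraries cannot reach an exact two-sided permutation p below 0.1. Suclg2 shares 21.8% of its windows with Gm15163, and with the counts of both summed the ratio was lower, at 15.3 ± 1.16, 16.7 ± 0.347 and 15.4 ± 1.07. Together the members took 0.964 to 1.08% of all counts, with ranges that overlapped between genotypes.

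Glyceraldehyde-3-phosphate dehydrogenase Gapdh, among the most abundant transcripts of most tissues, was listed at only 5.63 ± 0.198 CPM per kilobase in the controls. Of the 50-base windows of its principal transcript, 82.5% also stand in transcripts of other genes, 222 of them. The 60 coding bases below (positions 407 to 466 of 1002 in the Gapdh coding sequence, transcript strand, GRCm38) are shown because they stand unchanged in 69 other genes, so that a read within them has no single place to be counted.
Gapdh: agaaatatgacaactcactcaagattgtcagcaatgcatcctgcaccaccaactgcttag
Shared windows also made up 72.2% of Eno1, 68.0% of phosphoglycerate kinase Pgk1, 41.5% of phosphoglycerate mutase Pgam1 and 34.4% of Pkm. In all, 14 of the 45 members had over 10% of their windows in common with another gene, and 10 of those 14 were among the 15 glycolysis genes. By contrast, 16 of the 19 genes of the TCA cycle with complex II had no shared window. Of the genes listed as holding at least 10% of a member's windows, 9 had 100 counts or more in some library. They belong to 8 members, 6 of them of glycolysis, and for Gapdh the list was not complete. Gm1840, which shares 18.6% of the windows of Gpi1, read 229 to 270.0 CPM, and Gm6560, a partner of Pkm, read 225 to 252 CPM. Gm5514, a partner of Ldhb, had 668 to 1113 counts. Pgam1-ps2, with a coding sequence 100% identical to that of Pgam1, read 11.4 to 14.5 CPM against 12.3 to 21.9 CPM for Pgam1 itself. The copies of Eno1 are described below. With copies summed, the control mean rose from 317 to 550.9 CPM for Gpi1, from 17.3 to 29.6 CPM for Pgam1, from 8.00 to 13.4 CPM for Gapdh, from 953 to 1190 CPM for Pkm and from 239 to 277 CPM for Ldhb. Outside glycolysis it rose from 13.1 to 20.5 CPM for Suclg2 and to 119.7 CPM for Pdhb. The levels of these members are therefore uncertain. For Gapdh the sum took in only 37 of the 72 genes that hold at least 10% of its windows.

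**Figure D1:**
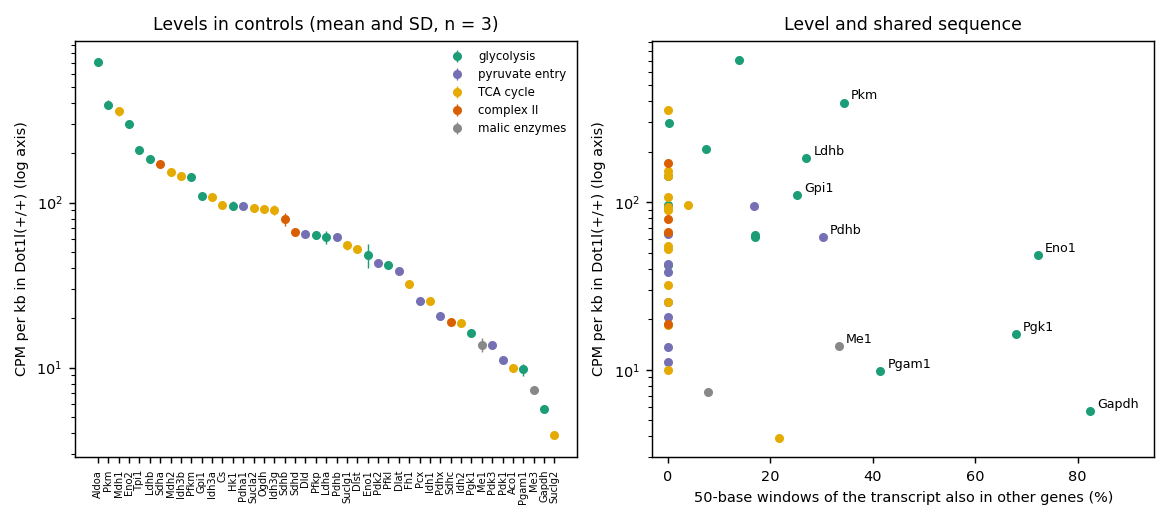
Level of each member in the Dot1l(+/+) controls (CPM per kilobase of principal transcript, log axis) against the percentage of its 50-base windows that also stand in transcripts of another gene. Gapdh, at 5.63 CPM per kilobase, has 82.5% of its windows shared, while Aldoa, at 709.9, has 13.9%.

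Between Dot1l(fl/+) and Dot1l(+/+), 5 of the 45 members were higher at an unadjusted p under 0.05 in edgeR's quasi-likelihood test and none was lower. Over all genes tested 8.39% passed that threshold, 4.3% higher and 4.09% lower, against 11.1% and none of the members. The count depended on the fit, with 8 members past it with the replicate block (7 higher, Eno1 lower) and 4 to 12 with a library left out. The 5 genes were Pfkl and Pfkm, the liver-type and muscle-type subunits of phosphofructokinase, Suclg1, the common subunit of succinyl-CoA ligase, Fh1, fumarate hydratase, and Sdhc, a membrane anchor of complex II. After Benjamini-Hochberg adjustment over all 17671 genes no member passed in this fit, each of the 5 having an adjusted p of 0.541 in edgeR's quasi-likelihood test. No gene of the whole table passed in this edgeR fit, where 1483 genes had an unadjusted p under 0.05. DESeq2 called 7 genes on all 9 libraries and 45 on the 2 groups compared, none of them a member, and edgeR with no filter on low counts called 251, Eno1 and Sdhc among them.

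Pfkl (ENSMUSG00000020277, chr10:77986947-78010083, minus strand, GRCm38) read 158, 158 and 155 CPM in Dot1l(+/+), 169, 179 and 189.8 CPM in Dot1l(fl/+), and 177, 179 and 164 CPM in Dot1l(fl/fl). Every library with a floxed allele stood above every control. Dot1l(fl/+) differed from the controls by a log2 fold change of 0.19 (SE 0.054, unadjusted p = 0.00324), from 157 ± 1.75 to 179 ± 10.3 CPM (SD, n = 3), by edgeR's quasi-likelihood test across all genes. Pfkm (ENSMUSG00000033065, chr15:98092589-98132451, plus strand) read 425, 415 and 396 CPM in the controls, 441, 460.5 and 450.4 CPM in Dot1l(fl/+), and 447, 427 and 431 CPM in Dot1l(fl/fl). These groups, too, did not overlap with the controls, and Dot1l(fl/+) had a log2 fold change of 0.13 (SE 0.049, unadjusted p = 0.0193 in edgeR). The third subunit, the platelet-type Pfkp, read 274, 269 and 248 CPM in the controls, 285, 278 and 282 CPM in Dot1l(fl/+) and 272, 248 and 268 CPM in Dot1l(fl/fl). Its Dot1l(fl/+) libraries stood above all controls, yet it missed the threshold at a log2 fold change of 0.10 (SE 0.054, unadjusted p = 0.099 in edgeR). Of its windows 17.1% also stand in Pitrm1, on the opposite strand. How the reads were counted by strand is not given in the sources used here.

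Of the transcripts of phosphofructokinase, per kilobase, Pfkm supplied 57.5 ± 0.177% in the controls, 57.4 ± 0.669% with 1 floxed allele and 57.9 ± 0.0218% with 2. Pfkl supplied 16.9 ± 0.429, 17.6 ± 0.776 and 17.9 ± 0.853%, and Pfkp the rest. The shares of Pfkl and Pfkp overlapped between genotypes, while those of Pfkm ran from 57.8 to 57.9% in Dot1l(fl/fl), all above the 57.3 to 57.6% of the controls.

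Suclg1 (ENSMUSG00000052738, chr6:73248382-73276911, plus strand) read 82.4, 89.1 and 79.6 CPM in the controls, 96.1, 101 and 93.1 CPM in Dot1l(fl/+), and 88.2, 92.5 and 87.9 CPM in Dot1l(fl/fl). The Dot1l(fl/+) libraries stood above all libraries of both other genotypes. With 1 floxed allele its log2 fold change was 0.21 (SE 0.055, unadjusted p = 0.0023 in edgeR), the lowest unadjusted p among the members. Fh1 (ENSMUSG00000026526, chr1:175600374-175625635, minus strand), which hydrates fumarate to malate, read 85.6, 86.6 and 81.9 CPM in the controls, 91.2, 98.3 and 96.0 CPM in Dot1l(fl/+), and 93.9, 87.0 and 86.1 CPM in Dot1l(fl/fl). The Dot1l(fl/+) libraries again lay wholly above the controls, at a log2 fold change of 0.17 (SE 0.053, unadjusted p = 0.00727 in edgeR). Of the Dot1l(fl/fl) libraries, 1 lay within the range of Dot1l(fl/+), 1 within that of the controls and 1 between.

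The 300 bases from 250 before to 50 after the RefSeq start site (GRCm38.p6) are shown for these 4 genes because they were higher together in Dot1l(fl/+). They are written 5′ to 3′ on the strand of the gene, and capitals mark matches to the motifs named after them.
Pfkl, chr10:78009758-78010057, minus strand: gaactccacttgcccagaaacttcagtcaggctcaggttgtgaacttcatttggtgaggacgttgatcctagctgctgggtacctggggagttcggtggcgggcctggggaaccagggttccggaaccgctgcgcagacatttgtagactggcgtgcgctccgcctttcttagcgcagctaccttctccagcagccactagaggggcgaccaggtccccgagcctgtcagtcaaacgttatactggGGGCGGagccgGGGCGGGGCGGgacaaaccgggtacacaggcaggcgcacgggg
Pfkm, chr15:98108221-98108520, plus strand: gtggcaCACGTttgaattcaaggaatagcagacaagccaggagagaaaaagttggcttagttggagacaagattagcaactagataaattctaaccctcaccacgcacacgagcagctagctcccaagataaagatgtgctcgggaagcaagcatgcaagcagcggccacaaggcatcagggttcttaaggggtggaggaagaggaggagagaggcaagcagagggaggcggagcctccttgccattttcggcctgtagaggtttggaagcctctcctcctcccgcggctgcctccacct
Suclg1, chr6:73248255-73248554, plus strand: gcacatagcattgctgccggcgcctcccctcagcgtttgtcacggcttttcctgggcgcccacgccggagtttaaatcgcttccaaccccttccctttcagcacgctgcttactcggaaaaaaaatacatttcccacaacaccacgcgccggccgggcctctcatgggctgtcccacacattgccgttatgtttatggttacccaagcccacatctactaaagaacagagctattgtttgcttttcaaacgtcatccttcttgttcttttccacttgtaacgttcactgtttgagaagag
Fh1, chr1:175625586-175625885, minus strand: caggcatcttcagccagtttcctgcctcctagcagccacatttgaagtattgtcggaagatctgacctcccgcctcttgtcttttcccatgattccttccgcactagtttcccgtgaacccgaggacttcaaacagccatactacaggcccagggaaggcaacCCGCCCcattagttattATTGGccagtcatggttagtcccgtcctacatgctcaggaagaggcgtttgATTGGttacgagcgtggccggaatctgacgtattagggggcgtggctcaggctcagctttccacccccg
On both strands, 6 motifs were searched: ACGTG (the core bound by hypoxia-inducible factors, contained in the next), CACGTG (the E-box), the consensus palindrome of NRF1, CCGGAAG (an ETS-type site), CCAAT and GGGCGG (the GC box). Pfkl held 3 GC boxes at positions -4, 8 and 13 from the start, Pfkm 1 ACGTG at -244 on the strand opposite the gene, and Fh1 a GC box at -87 and CCAAT at -70 and -19, all on the strand opposite the gene. Suclg1 held none, and its RefSeq start lies 123 bases from that of the principal transcript used for lengths. Promoters were found for 43 of the 45 members, without Idh3a and Sdhc. A GC box stood in 65.1% of the members' promoters against 35.7% of the 32851 in the table, and CCGGAAG in 29.4% of the 17 promoters of the TCA cycle with complex II, in none of the 15 of glycolysis and in 8.86% of all. ACGTG stood in 33.3% of the glycolysis promoters, 23.5% of those of the TCA cycle with complex II and 19.6% of all. CCAAT stood in 48.8% of the members' promoters and 37.4% of all, CACGTG in 4.65 and 7.15%, and the NRF1 palindrome in 2.33 and 0.971%. These shares are set against all promoters in the table, not against those of expressed genes or of like GC content.

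Complex II has 4 subunits, which oxidise succinate and pass its electrons to ubiquinone. Sdhc (ENSMUSG00000058076, chr1:171127165-171150603, minus strand) read 57.6, 62.3 and 59.5 CPM in the controls, 62.1, 77.6 and 74.0 CPM in Dot1l(fl/+), and 61.3, 68.8 and 58.1 CPM in Dot1l(fl/fl). Dot1l(fl/+) replicate 1 lay just below the highest control, while the other libraries of that genotype stood above every other library. With 1 floxed allele the log2 fold change was 0.25 (SE 0.083, unadjusted p = 0.00911 in edgeR), the largest positive difference among the members. The other membrane anchor, Sdhd, read 84.2, 82.0 and 78.9 CPM in the controls, 80.8, 94.2 and 87.7 CPM in Dot1l(fl/+), and 77.9, 84.1 and 80.0 CPM in Dot1l(fl/fl), with overlap in both comparisons. Sdha, the flavoprotein, read 502, 505 and 486 CPM in the controls, 538, 520.5 and 517 CPM in Dot1l(fl/+), and 494, 509 and 521 CPM in Dot1l(fl/fl). Its Dot1l(fl/+) libraries stood above all controls, at a log2 fold change of 0.08 (SE 0.048, unadjusted p = 0.132 in edgeR). The iron-sulphur subunit Sdhb read 96.4, 93.5 and 81.0 CPM in the controls, 87.1, 106 and 89.1 CPM in Dot1l(fl/+), and 88.0, 93.6 and 98.9 CPM in Dot1l(fl/fl), and the 3 genotypes overlapped. All 4 subunits had a positive log2 fold change in Dot1l(fl/+), from 0.06 to 0.25, and 3 of 4 in Dot1l(fl/fl), from -0.02 to 0.07. Per kilobase Sdhc was the lowest subunit, at 18.9 ± 0.740 CPM in the controls against 172 ± 3.61 CPM for Sdha.

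Of the other glycolysis genes, which cover the remaining steps, none passed in Dot1l(fl/+) in the fit reported here. With the replicate block Pgk1, and Mdh2 of the TCA cycle, also passed as higher and Eno1 as lower. Hexokinase Hk1, the first enzyme of the pathway, read 394, 358 and 354 CPM in the controls, 379, 371 and 368 CPM in Dot1l(fl/+) and 383, 369.5 and 378 CPM in Dot1l(fl/fl). Pkm, which makes pyruvate, read 1017, 937 and 907 CPM in the controls, 912, 1040.2 and 969 CPM in Dot1l(fl/+) and 947, 922 and 913 CPM in Dot1l(fl/fl). Both overlapped across all genotypes, with log2 fold changes between -0.04 and 0.03 against the controls. Gapdh read 8.09, 7.69 and 8.23 CPM in the controls, 7.17, 6.25 and 7.29 CPM in Dot1l(fl/+), and 6.96, 7.71 and 8.31 CPM in Dot1l(fl/fl). It was the only member whose Dot1l(fl/+) libraries all lay below the controls, at a log2 fold change of -0.21 (SE 0.11, unadjusted p = 0.0761 in edgeR). With 37 of the 72 genes that hold at least 10% of its windows summed with it, the groups overlapped. They ran from 11.98 to 14.5 CPM in the controls and from 11.1 to 12.6 CPM in Dot1l(fl/+). Counting members whose 3 Dot1l(fl/+) libraries lay wholly to one side, 8 stood above the controls (17.8%, against 6.84% of all genes) and 1 below (2.22%, against 6.47%). The 8 were Pfkl, Pfkm, Pfkp, Pgk1, Eno2, Suclg1, Fh1 and Sdha.

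Ldha, the lactate dehydrogenase subunit of glycolytic tissue, read 112, 98.7 and 118 CPM in the controls, 103, 127 and 119.5 CPM in Dot1l(fl/+), and 111, 107 and 99.8 CPM in Dot1l(fl/fl). Ldhb, the heart-type subunit, read 246, 234 and 235 CPM in the controls, 238, 268 and 247 CPM in Dot1l(fl/+), and 248, 238 and 224 CPM in Dot1l(fl/fl). Both overlapped across genotypes. Per kilobase, Ldhb made up 74.7 ± 1.66% of the pair in the controls, 74.5 ± 1.11% with 1 floxed allele and 75.2 ± 0.101% with 2, so the balance of the subunits did not separate the genotypes.

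None of the 9 genes of pyruvate entry passed in any comparison. Pdha1, the catalytic subunit of pyruvate dehydrogenase, read 272, 266 and 272 CPM in the controls, 265, 299 and 249.4 CPM in Dot1l(fl/+), and 278, 286 and 273 CPM in Dot1l(fl/fl). All Dot1l(fl/fl) libraries lay above the controls, by a log2 fold change of 0.05 (SE 0.062) that missed the threshold, and 16.9% of its windows stand in other genes, Map3k15 on the opposite strand among them. The kinases that switch pyruvate dehydrogenase off are Pdk1, Pdk2 and Pdk3. Pdk1 read 57.7, 58.9 and 56.6 CPM in the controls, 53.2, 67.1 and 65.0 CPM in Dot1l(fl/+), and 59.6, 57.0 and 54.3 CPM in Dot1l(fl/fl). Pdk2 read 99.2, 95.4 and 94.2 CPM in the controls, 98.6, 99.3 and 102 CPM in Dot1l(fl/+), and 105, 98.5 and 95.9 CPM in Dot1l(fl/fl). Pdk3 read 29.1, 27.4 and 30.8 CPM in the controls, 29.7, 29.2 and 26.9 CPM in Dot1l(fl/+), and 30.9, 30.2 and 27.1 CPM in Dot1l(fl/fl). The kinases overlapped across all genotypes, and Pdk2 supplied 63.3 ± 0.949% of their transcripts per kilobase in the controls, 63.6 ± 1.14% with 1 floxed allele and 64.1 ± 0.648% with 2. The share of Pdk1 was 16.4 ± 0.492% in the controls and 15.8 ± 0.0902% in Dot1l(fl/fl), without overlap. The log2 fold changes of the 9 genes ran from -0.06 to 0.10 with 1 floxed allele and from -0.03 to 0.06 with 2.

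In the TCA cycle, citrate synthase Cs, its entry enzyme, read 286, 283 and 279 CPM in the controls, 289, 287 and 281 CPM in Dot1l(fl/+), and 304, 295 and 288 CPM in Dot1l(fl/fl). Its Dot1l(fl/fl) libraries lay above the controls at a log2 fold change of 0.06 (SE 0.046, unadjusted p = 0.18 in edgeR). Ogdh, the first subunit of the 2-oxoglutarate dehydrogenase complex, read 384, 379 and 365 CPM in the controls, 372, 353 and 375 CPM in Dot1l(fl/+), and 392, 363 and 359.7 CPM in Dot1l(fl/fl), with overlap throughout. The subunits of the NAD-dependent isocitrate dehydrogenase, Idh3a, Idh3b and Idh3g, had log2 fold changes from 0.02 to 0.06 in both comparisons with the controls. The malic enzymes Me1 and Me3, which form pyruvate from malate, stayed between -0.02 and 0.04.

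**Figure D2:**
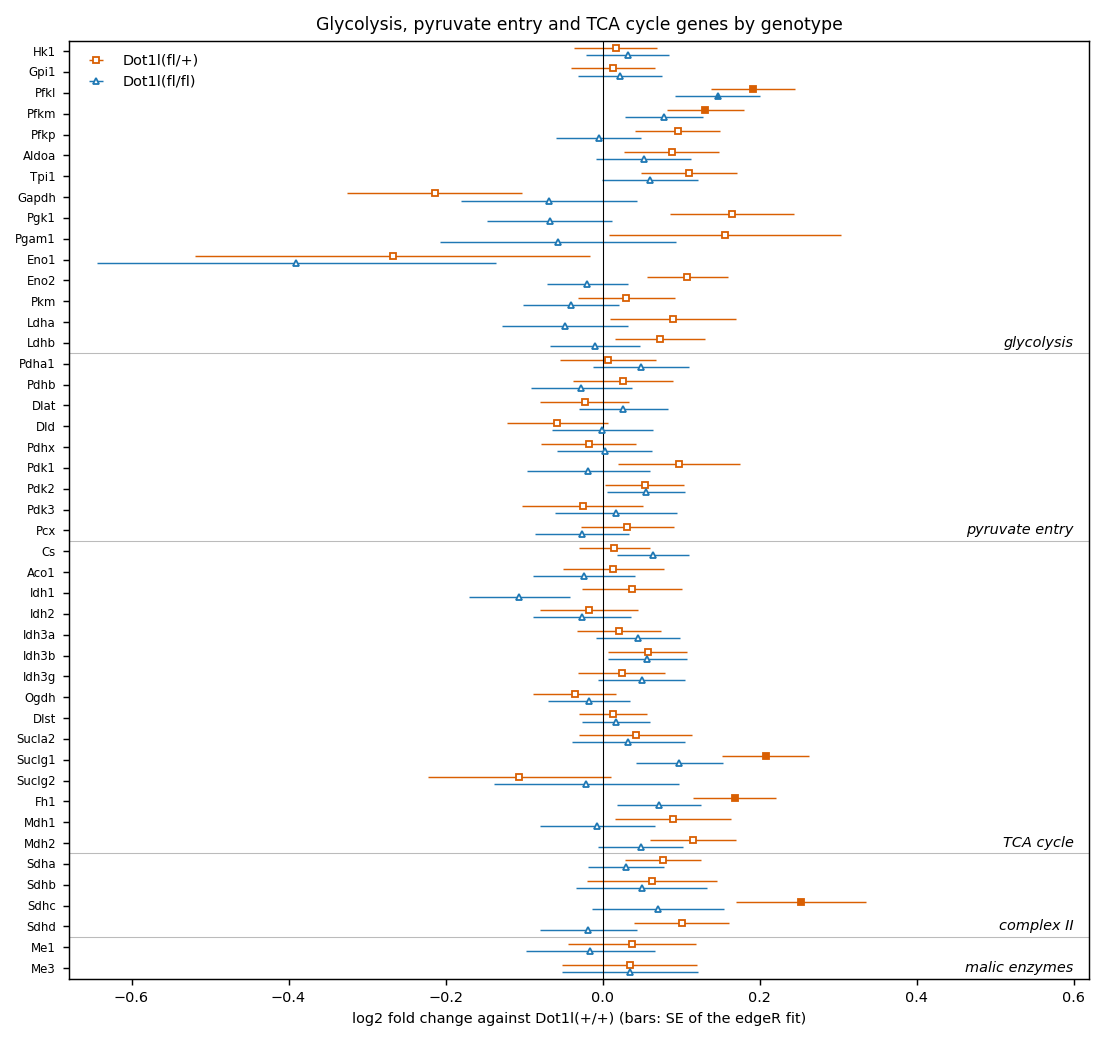
Log2 fold change of each member with its standard error (horizontal axis) in Dot1l(fl/+) and Dot1l(fl/fl) against the same Dot1l(+/+) controls, by role. The largest positive difference is that of Sdhc in Dot1l(fl/+), 0.25, and the widest error bar is that of Eno1.

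**Figure D3:**
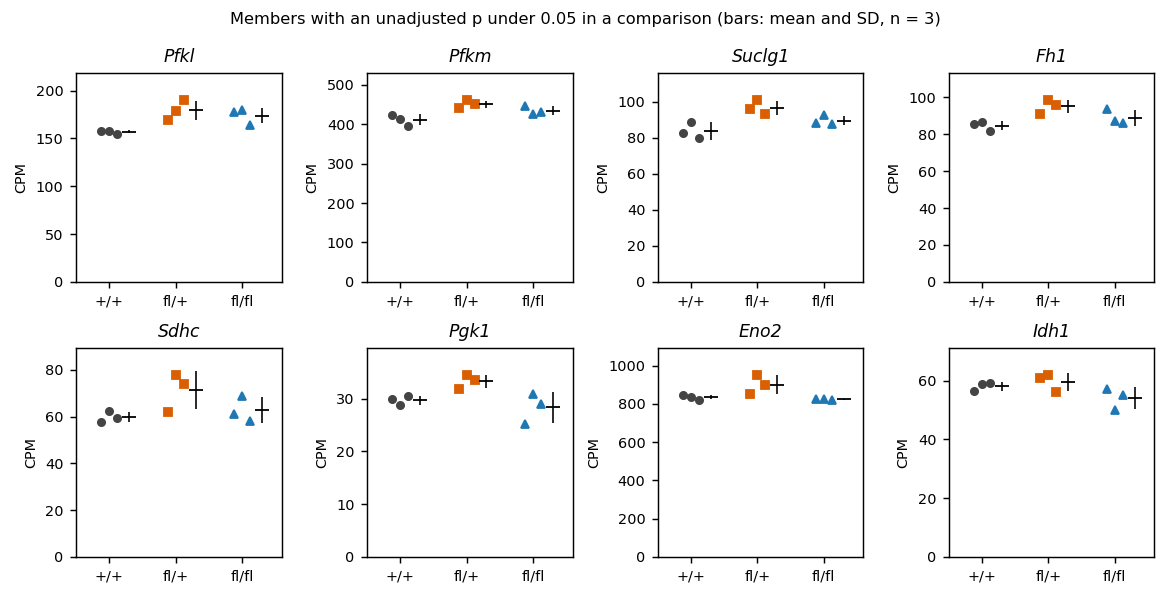
CPM in every library of the members with an unadjusted p under 0.05 in any comparison, by genotype, 3 libraries each. For Pfkl all libraries with a floxed allele lie above the controls, at 164 CPM or more against 158 CPM or less.

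Cell-type markers differed beside these results. In Dot1l(fl/+), 3 of 8 oligodendrocyte markers were higher at an unadjusted p under 0.05, with log2 fold changes of 0.27 for Cldn11, 0.17 for Cnp and 0.16 for Mog, myelin genes, while 3 of the 8 had negative ones. Their list summed to 10515 to 11891 CPM against 10386 to 11426 CPM in the controls. All 4 choroid plexus markers, 2 of the 3 tested hypothalamic markers, 1 of 8 astrocyte markers and 1 of 8 microglia markers were also higher, and 3 of 8 dopamine neuron markers were lower. Of the astrocyte markers 6 of 8 had a negative log2 fold change, and their sums of 3411 to 3925 CPM overlapped with 3662 to 4080 CPM in the controls. Of the 5 blood markers all had a negative one and 1 passed as lower. The 8 general neuron markers summed to 6329 to 6763 CPM against 6864 to 6939 CPM in the controls, without overlap, with 5 of 8 negative and 1 passing as lower. The part of cell composition in the members' differences was not tested. Leaving out Dot1l(fl/+) replicate 3, the library with the most choroid plexus transcripts, kept the 5 members higher and added Eno1 as lower. Leaving out Dot1l(fl/+) replicate 1, which had the most hypothalamic transcripts, gave 12 members higher, the 5 and Tpi1, Pgk1, Eno2, Ldha, Pdk1, Mdh2 and Sdhd. In that fit more of all genes passed too, 6.28% higher and 6.22% lower. Pfkm passed in all but 1 leave-out, with an unadjusted p of 0.0752 in edgeR without Dot1l(+/+) replicate 3, and the other 4 genes passed in every one.

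In Dot1l(fl/fl) against the same controls, Pfkl alone passed, 1 of 45 members or 2.22%, against 3.93% of all genes, 2.21% higher and 1.72% lower. Its log2 fold change was 0.15 (SE 0.054, unadjusted p = 0.017, adjusted p = 0.999 in edgeR's quasi-likelihood test with Benjamini-Hochberg adjustment). Without Dot1l(fl/fl) replicate 1 no member passed, Pfkl having an unadjusted p of 0.0543 in edgeR. Without Dot1l(fl/fl) replicate 2 Pfkl stood at 0.0635 in edgeR and the only gene to pass was Eno1, lower, while without Dot1l(+/+) replicate 2 Suclg1 passed beside Pfkl. For 4 members, Pfkl, Pfkm, Pdha1 and Cs, all Dot1l(fl/fl) libraries lay above the controls (8.89%, against 5.03% of all genes). Pdhb, the second subunit of pyruvate dehydrogenase, had all below (2.22%, against 5.25%), at 91.2, 92.6 and 91.6 CPM against 92.8, 94.4 and 93.4 CPM, but overlapped with the controls once its copy Gm6123 was summed with it. No gene had an adjusted p under 0.05 in this edgeR fit, where 694 had an unadjusted p under 0.05. DESeq2 called 3 genes on all 9 libraries and 8 on the 2 groups, no member among them, and edgeR with no filter called 118, Eno1 among them. Beside this, 7 of 8 dopamine neuron markers and 2 of 4 choroid plexus markers were lower and 2 of 8 microglia markers higher in Dot1l(fl/fl) at an unadjusted p under 0.05. The microglia list summed to 385 to 414 CPM against 351 to 368 CPM in the controls. Of the 8 endothelial markers 7 had a negative log2 fold change, none passing. Their sum was 319 to 321 CPM against 323 to 341 CPM in the controls, without overlap. The part of these markers was not tested. The other 4 genes that passed in Dot1l(fl/+) had log2 fold changes of 0.08 for Pfkm, 0.10 for Suclg1, 0.07 for Fh1 and 0.07 for Sdhc in Dot1l(fl/fl), each below its value with 1 floxed allele. Both comparisons use the same 3 control libraries, so these values are not independent.

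The direct comparison of Dot1l(fl/fl) with Dot1l(fl/+) had 4 members lower and none higher at an unadjusted p under 0.05, that is 8.89% and none, against 6.48% of all genes, 2.87% lower and 3.6% higher. Pgk1 (ENSMUSG00000062070, chrX:106187100-106203699), the first ATP-forming enzyme of glycolysis, read 31.9, 34.4 and 33.5 CPM in Dot1l(fl/+) and 25.2, 31.0 and 29.0 CPM in Dot1l(fl/fl), with 29.9, 28.8 and 30.5 CPM in the controls. The Dot1l(fl/+) libraries stood above all others, and the log2 fold change was -0.23 (SE 0.079, unadjusted p = 0.0115, adjusted p = 0.726 in edgeR). Eno2 (ENSMUSG00000004267, chr6:124760053-124769673) read 850.4, 949 and 900.0 CPM in Dot1l(fl/+) and 826, 824 and 822 CPM in Dot1l(fl/fl), with 845, 837 and 822 CPM in the controls. Its log2 fold change was -0.13 (SE 0.052, unadjusted p = 0.0288, adjusted p = 0.733 in edgeR), and again the Dot1l(fl/+) libraries were the high ones. Idh1 (ENSMUSG00000025950, chr1:65158616-65186500), the cytosolic NADP-dependent isocitrate dehydrogenase, read 61.1, 61.9 and 56.2 CPM in Dot1l(fl/+) and 57.2, 50.02 and 55.0 CPM in Dot1l(fl/fl), with 56.5, 58.9 and 59.2 CPM in the controls. Its groups overlapped, and the log2 fold change was -0.14 (SE 0.064, unadjusted p = 0.0428, adjusted p = 0.762 in edgeR). Idh1 did not pass with the replicate block or in DESeq2 on all 9 libraries. Sdhc, with the values given above, had a log2 fold change of -0.18 (SE 0.083, unadjusted p = 0.0465, adjusted p = 0.763 in edgeR).

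These differences depended on single libraries. Without Dot1l(fl/fl) replicate 3 only Pgk1 passed, and without Dot1l(fl/fl) replicate 2 only Pgk1 and Sdhc. Without Dot1l(fl/fl) replicate 1 Pgk1 had an unadjusted p of 0.0689 in edgeR. Without Dot1l(fl/+) replicate 2 Pgk1 was the only member to pass as lower, and Pdha1, Dld and Suclg2 passed as higher. Eno2, Idh1 and Sdhc then had log2 fold changes of -0.09, -0.12 and -0.12 and did not pass. No gene had an adjusted p under 0.05 in this edgeR fit, where 1145 had an unadjusted p under 0.05. DESeq2 called 11 genes on all 9 libraries and 8 on the 2 groups, and edgeR with no filter called 164, no member among any of them. Counting wholly separated groups, no member lay above (5.98% of all genes did) and 4 lay below, namely Pfkp, Pgk1, Eno2 and Suclg1 (8.89%, against 5.14%). In this comparison 4 of 8 oligodendrocyte markers, 5 of 8 dopamine neuron markers, all 4 choroid plexus markers and the 3 tested hypothalamic markers were lower in Dot1l(fl/fl), the choroid plexus sum being 29.9 to 38.1 CPM in that genotype. Of the general neuron markers 1 of 8 was higher and of the blood markers 1 of 5. The neuron markers summed to 6884 to 7264 CPM in Dot1l(fl/fl), wholly above Dot1l(fl/+). Their part in the members' differences was not tested.

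Set against each other, glycolysis and the TCA cycle with complex II moved by small amounts in Dot1l(fl/+). Of the 15 glycolysis genes 13 had a positive log2 fold change, with a median of 0.090, and of the 19 genes of the TCA cycle with complex II 16 did, with a median of 0.042. Over all genes 8645 were positive and 9026 negative, with a median of -0.0034. Pyruvate entry, with 5 of 9 genes positive, had a median of 0.0067, and complex II alone one of 0.089. In Dot1l(fl/fl) glycolysis had 6 of 15 genes positive and a median of -0.010, and the TCA cycle with complex II 12 of 19 and a median of 0.033. These medians rest on single libraries: that of glycolysis in Dot1l(fl/fl) was 0.014 without Dot1l(+/+) replicate 1 and that of the TCA cycle -0.00086 without Dot1l(+/+) replicate 3. In Dot1l(fl/+) the TCA median was 0.011 without Dot1l(fl/+) replicate 2, 0.015 without Dot1l(+/+) replicate 3, 0.079 without Dot1l(fl/+) replicate 3 and 0.082 without Dot1l(+/+) replicate 2, and that of glycolysis 0.054 without Dot1l(fl/+) replicate 2. Between the genotypes with floxed alleles, 12 of 15 glycolysis genes and 13 of 19 TCA genes were lower in Dot1l(fl/fl), with medians of -0.070 and -0.013, while over all genes 8749 were lower and 8922 higher, with a median of 0.0015. With the length and GC offset the medians of the 2 lists became -0.033 and -0.040, which turned their order. With libraries left out they ran from -0.112 to -0.037 and from -0.051 to -0.0026. Among the 5 glycolysis genes with at most 10% shared sequence (Hk1, Pfkl, Pfkm, Tpi1 and Eno2), the medians were 0.11 with 1 floxed allele and 0.060 with 2.

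The same contrast was taken within each library, as the mean log2 CPM of the list minus its mean in the controls. For glycolysis this score was 0.02, -0.02 and 0.01 in the controls, -0.03, 0.09 and 0.09 with 1 floxed allele, and -0.08, 0.02 and -0.01 with 2. For the TCA cycle with complex II it was 0.01, 0.04 and -0.05 in the controls, 0.01, 0.13 and 0.03 with 1 floxed allele, and 0.02, 0.03 and 0.01 with 2. The genotypes overlapped in both lists. Dot1l(fl/+) replicate 1 stood below every control for glycolysis and within the range of the controls for the TCA cycle, and its removal raised the count of members called most, to 12. Without Eno1, whose values are given below, the glycolysis score was 0.04, -0.03 and -0.01 in the controls, 0.02, 0.12 and 0.08 with 1 floxed allele, and -0.01, 0.01 and 0.01 with 2. Leaving Eno1 out was chosen after seeing the data. On this score each Dot1l(fl/+) library stood above each Dot1l(fl/fl) library, and both genotypes overlapped with the controls. The glycolysis score minus the TCA score averaged -0.0093 ± 0.061 with 1 floxed allele and -0.047 ± 0.050 with 2, against an SD of 0.055 in the controls (n = 3 each). Without Eno1 it averaged 0.017 ± 0.034 and -0.018 ± 0.016, against an SD of 0.058. None of these differences exceeded the spread between libraries, so no shift of one pathway against the other was detectable at this depth and number of pools.

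**Figure D4:**
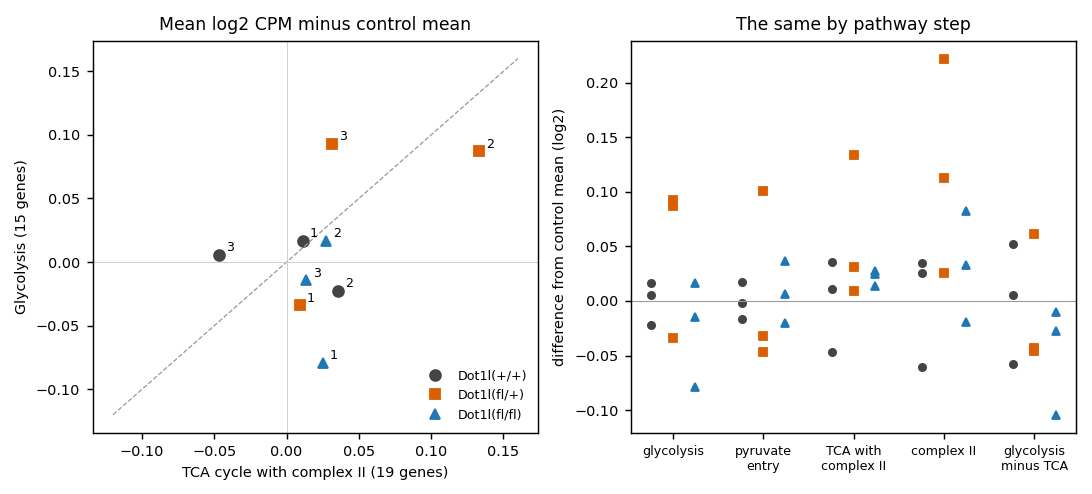
Mean log2 CPM of each list minus its control mean, in every library, by genotype (points are libraries). The largest value of the TCA cycle with complex II is 0.13, in Dot1l(fl/+) replicate 2, and all groups overlap.

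The spread of single members bears on these counts. The within-genotype SD of log2 CPM had a median of 0.0715 over the members and 0.126 over all genes tested, and the median SE of a member's log2 fold change was 0.061. Beyond a log2 fold change of 0.2 in either direction lay 4 members in Dot1l(fl/+) (Gapdh, Eno1, Suclg1 and Sdhc) and 1 in Dot1l(fl/fl) (Eno1). The respiratory chain around complex II was compared on the same scale. Of the 36 genes of complex I, 20 were higher in Dot1l(fl/+) at an unadjusted p under 0.05 with a median log2 fold change of 0.19, and of the 20 genes of complexes III and IV, 11 were, with a median of 0.28. In Dot1l(fl/fl) 5 of each were higher, with medians of 0.082 and 0.16. None of these 56 genes had an adjusted p under 0.05 in edgeR, and whether they differed from the members was not tested.

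Eno1, the ubiquitous enolase, had the largest spread of all members, with a within-genotype SD of 0.46 on the log2 scale. It and its near-identical copies were looked at after their values were seen. Eno1 read 79.5, 104 and 110.0 CPM in the controls, 55.0, 76.8 and 113 CPM in Dot1l(fl/+), and 47.0, 101 and 76.7 CPM in Dot1l(fl/fl). The copy Eno1b read 22.7, 0.515 and 0.263 CPM in the controls, 32.6, 22.4 and 0.382 CPM in Dot1l(fl/+), and 49.1, 0.554 and 18.9 CPM in Dot1l(fl/fl). In counts this is 480 against 12 and 7 among the controls, a split between libraries of one genotype that falls across all 3 genotypes. The libraries with many Eno1b counts were those with few Eno1 counts. A further copy, Gm4735, moved with Eno1, at 25.4, 33.1 and 34.6 CPM in the controls, 10.7, 23.1 and 36.6 CPM in Dot1l(fl/+), and 4.598, 32.2 and 19.8 CPM in Dot1l(fl/fl).

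Over the coding bases that could be aligned, Gm4735 matched Eno1 at 99.62% (5 of 1302 bases differ) and Eno1b at 99.39% (8 of 1305 differ). Coding bases 697 to 816 of Eno1 (GRCm38, transcript strand) and the matching stretch of Gm4735 are shown to make plain how little tells the genes apart, with capitals at the 2 bases that differ.
Eno1: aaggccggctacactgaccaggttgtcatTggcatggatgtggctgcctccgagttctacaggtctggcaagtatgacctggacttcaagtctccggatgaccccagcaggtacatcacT
Gm4735: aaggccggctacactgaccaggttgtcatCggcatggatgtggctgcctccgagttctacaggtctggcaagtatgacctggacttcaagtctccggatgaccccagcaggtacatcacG
The sum of the 3 genes was steadier, at 128, 138 and 145 CPM in the controls, 98.3, 122 and 149.6 CPM in Dot1l(fl/+), and 101, 134 and 115 CPM in Dot1l(fl/fl). With members and their copies summed, Eno1 had log2 fold changes of -0.15 with 1 floxed allele and -0.23 with 2, against -0.27 and -0.39 for Eno1 alone, none of them past the threshold in edgeR with the filter on low counts. With the replicate block Eno1 alone passed as lower in both comparisons, at unadjusted p = 0.049 and 0.0101 in edgeR (adjusted p = 0.531 and 0.999). With no filter it passed at unadjusted p = 0.000171 and 3.12e-08 in edgeR (adjusted p = 0.0255 and 2.68e-05). In that fit the prior degrees of freedom, the weight of the spread shared by all genes against a gene's own, had a median of 1253 against 7.35 with the filter, and Eno1 had the largest spread of all members. The same 5, 1 and 4 members passed in the 3 comparisons after this summing. What divides the libraries in Eno1b was not tested.

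**Figure D5:**
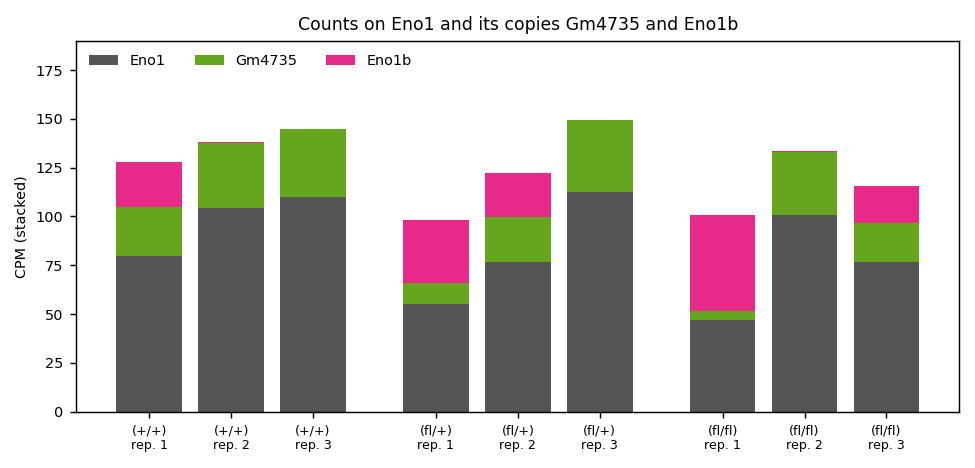
CPM of Eno1, Eno1b and Gm4735 in each of the 9 libraries, grouped by genotype and drawn from 0. Eno1b is below 1 CPM in 4 libraries and between 18.9 and 49.1 CPM in the other 5, across all genotypes.

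Beyond the members, 56 further genes of these pathways were listed and 53 passed the filter (not Pklr, Ldhc and Pck1). Of these 5.66% passed the threshold with 1 floxed allele, 1.89% with 2 and 7.55% between the floxed genotypes, against 8.39, 3.93 and 6.48% of all genes, so these shares lay below or near the background. In Dot1l(fl/+), 2 passed as higher, namely Bsg, the chaperone of lactate transporters, by a log2 fold change of 0.18, and Got1, the cytosolic aspartate aminotransferase of the malate-aspartate shuttle, by 0.12. Dhtkd1, a dehydrogenase of 2-oxoadipate, was lower. It read 17.3, 18.8 and 15.3 CPM in the controls, 14.5, 10.03 and 13.0 CPM in Dot1l(fl/+), and 14.6, 15.7 and 17.2 CPM in Dot1l(fl/fl), a log2 fold change of -0.46 (SE 0.13, unadjusted p = 0.00389 in edgeR) in Dot1l(fl/+) without overlap. In Dot1l(fl/fl) the inducible hexokinase Hk2 was the single gene past the threshold. It read 5.53, 4.85 and 5.11 CPM in the controls, 6.07, 4.88 and 6.30 CPM in Dot1l(fl/+), and 7.04, 6.68 and 6.79 CPM in Dot1l(fl/fl), above all other libraries, at a log2 fold change of 0.41 (SE 0.13, unadjusted p = 0.0069, adjusted p = 0.999 in edgeR). Between the genotypes with floxed alleles, the muscle-type phosphoglycerate mutase Pgam2 (0.74), Dhtkd1 (0.34) and the monocarboxylate transporter Slc16a7 (0.27) were higher in Dot1l(fl/fl) by these log2 fold changes, and Pgd, of the pentose phosphate pathway, was lower (-0.14). None of the 53 genes had an adjusted p under 0.05 in edgeR's quasi-likelihood test in any comparison.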

How the data were processed

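RNA from dissected midbrain was sequenced from directional NEBNext Ultra libraries, 9 in all. Per the labels and the study's methods the authors trimmed reads (bcl2fastq 2.17 and Trimmomatic 0.30 stand in the submitters' processing notes), mapped them to GRCm38.p4 and counted them by gene, and the deposited values are these unscaled whole-number counts. Which aligner and which counting tool were used, and with what strand setting, is not given in the sources used here. The deposited tables of the authors' own DESeq2 1.10.1 comparisons (means, fold changes and p-values) were not used.

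Gene names, lengths and transcripts came from GENCODE M21 and promoters from RefSeq. Counts were filtered (filterByExpr), scaled by TMM and fitted with edgeR 4.0.16 in R 4.3.3 (quasi-likelihood test, all 9 libraries in one fit), with Benjamini-Hochberg adjustment over 17671 genes, 3 comparisons and DESeq2 1.42.0 as an alternative. The fitting code was tested on simulated data. CPM used TMM-scaled library sizes, log2 scores a prior count of 2, and shared sequence 50-base windows of principal transcripts. Copies summed with a member were Eno1b and the pseudogenes in the count tables that held at least 10% of its windows. Pitrm1, which overlaps Pfkp, and Map3k15, which overlaps Pdha1, were therefore not summed. For Gapdh 37 of 72 genes over that share entered the sum, because only the genes with most windows in common were listed.

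The members and all lists were chosen with earlier results of these data known. Values in every library are given for members with an unadjusted p under 0.05 in any comparison, the complex II subunits, and Hk1, Gapdh, Pkm, Ldha, Ldhb, Pdha1, Pdk1, Pdk2, Pdk3, Cs and Ogdh. The values of Pfkp, Pdhb and Eno1 with its copies are given outside this rule and were chosen after they were seen. Other members are given by range and count, and other pathway genes where they had an unadjusted p under 0.05. Total counts of 16422135 to 28403218 per library left counting error small for most members.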

Additional observations from a re-analysis of the deposited data

How the results depend on the processing

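The limits are few pools and small differences, with 3 pools of 3 mice per genotype and a median SE of 0.061. The smallest member differences past an unadjusted p of 0.05 in edgeR were about 0.13 in log2 size. These were Pfkm in Dot1l(fl/+) and Eno2 between the floxed genotypes. Some larger ones missed it, such as 0.16 for Pgk1 and -0.21 for Gapdh in Dot1l(fl/+). No member had an adjusted p under 0.05 in the edgeR fit reported here or in DESeq2. With no filter on low counts Eno1, lower, and Sdhc, higher, had one in Dot1l(fl/+) and Eno1, lower, in Dot1l(fl/fl) in edgeR. Over all genes, the replicate block gave 0, 3 and 3 adjusted calls in the 3 comparisons in edgeR, the length and GC offset with the replicate block 0, 3 and 4, the 2 groups alone 1, 4 and 0, and leaving out a library up to 5, 0 and 12. Counts per gene do not resolve near-identical copies. Against the controls, 5 members passed in Dot1l(fl/+), but 8 with a filter of 10 counts in every library, 8 with the replicate block (7 higher, Eno1 lower) and 9 with the length and GC offset with the replicate block (8 higher, Eno1 lower), and 4 to 12 with each library left out. In Dot1l(fl/fl) 1 member passed, but 2 with no filter, 2 with the replicate block and 2 with the length and GC offset with the replicate block, the second each time Eno1, lower, and 0 to 2 with each library left out. Between the floxed genotypes 4 passed, but 2 in DESeq2 and 2 in edgeR when fitted on the 2 groups alone, which leaves fewer libraries to estimate the spread, and 1 to 6 with each library left out. The cause of the other changes was not tested. The median of glycolysis in Dot1l(fl/+) stayed between 0.078 and 0.096 over the alternatives and that of the TCA cycle with complex II between 0.038 and 0.058. With libraries left out they ran from 0.054 to 0.128 and from 0.011 to 0.082, the median of glycolysis in Dot1l(fl/fl) ran from -0.014 to 0.014, that of the TCA cycle with complex II from -0.00086 to 0.051, and the glycolysis score minus the TCA score from -0.045 to 0.017 with 1 floxed allele and from -0.076 to -0.019 with 2. Between the floxed genotypes these medians ran from -0.112 to -0.037 and from -0.051 to -0.0026. Summing copies, leaving Eno1 out, and leaving libraries out of the scores, were chosen after seeing the data. Pfkl, Pfkm, Suclg1, Fh1 and Sdhc in Dot1l(fl/+) passed under all 10 alternatives, and no member's difference that passed in the fit reported here turned its direction.

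The replicate numbers were not taken as pairs in the fit reported here, because not every same-number correlation passed 0.1. If the numbers do mark matched sets, that fit ignores the pairing. With the replicate number as a block 8, 2 and 3 members passed in the 3 comparisons, against 5, 1 and 4. Deviations of same-numbered libraries from their group means correlated at 0.0222 to 0.317, all 9 positive but not all over 0.1. Those of libraries with different numbers correlated at -0.267 to 0.108, 13 of 18 negative, and Dot1l(+/+) replicate 3 correlated better with Dot1l(fl/fl) replicate 2 (0.0705) than with replicate 3 (0.0222). The study's methods describe pools made from matched sets of the 3 genotypes, but no label ties the numbers to them.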

Other observations

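The genes beside the members showed their own patterns by group, given here as counts of positive log2 fold changes with no test of the lists. Of 13 other glycolytic isoenzymes, such as the inducible hexokinase Hk2, 12 were positive with 1 floxed allele and 10 with 2, while 9 were lower in Dot1l(fl/fl) than in Dot1l(fl/+). Of 7 genes of the pentose phosphate pathway, which makes NADPH, 6 were positive with 1 floxed allele and 3 with 2. The 5 enzymes that make or remove fructose 2,6-bisphosphate, the activator of phosphofructokinase, had 2 positive with 1 floxed allele and 1 with 2, none past an unadjusted p of 0.05 in edgeR. Of 6 transporters of glucose and lactate 3 were positive with 1 floxed allele and 5 with 2, and of 9 genes of the pyruvate carrier, dehydrogenase control and lipoylation 4 and 5 were. Of 9 other genes of the TCA cycle and complex II assembly 4 were positive in each comparison with the controls, and of 4 genes of the shuttles 2 with 1 floxed allele and 3 with 2. Over all genes tested 48.9% were positive with 1 floxed allele and 50.4% with 2.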
